A study of Mus musculus with 26 samples.

Results

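The collagen gene family was followed through 5 drug experiments on degenerating mouse retina. Its members were all genes of the count table whose mouse symbol, in the gene names used here, is Col, a type number, a and a chain number. This rule, which missed Emid2 (now Col26a1, listed there under its older symbol), found 43 genes among 37991. Of these, 11 encode chains of fibrillar collagens, 9 fibril-associated collagens (FACIT), 6 type IV collagen of basement membranes, 6 the beaded filaments of type VI, 4 transmembrane collagens, 3 short-chain network collagens, 2 multiplexins, 1 the anchoring fibrils of type VII and 1 (Col28a1) none of these classes. No member was at 0 in all 26 libraries.

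All animals carried the rd10 mutation of Pde6b, a subunit gene of the rod phosphodiesterase, and lose their rods. They were injected intraperitoneally from postnatal day (PN) 9 to PN24 with saline (control) or an inhibitor. Whole retinas of B6.CXB1-Pde6b rd10/J mice were taken after Romidepsin, which blocks histone deacetylases (3 control and 3 treated libraries), UNC0642, which blocks the histone methyltransferases Ehmt1 and Ehmt2 (2 and 2), DZNep (4 and 2) or UNC1999 (3 and 3), both given as inhibitors of the histone methyltransferase EZH2. The LSD1 inhibitor GSK2879552 was tested on rods sorted for green fluorescence from rd10 mice crossed to B6.Cg-Tg(Nrl-EGFP)1Asw/J (2 and 2), where the promoter of the rod gene Nrl drives the reporter. DZNep was given daily at first and every second day later, and the stated UNC1999 diluent held further solvents beside saline. For the UNC1999 controls the paper names saline in its RNA-seq text and diluent in a figure legend. If saline was used, drug and solvent cannot be told apart in that experiment. The labels count the number in the genotype upward by 1 from the second DZNep control to the last UNC1999 library, and the treatment name in the same way in the UNC1999 arm; the titles were used.

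Collagens are secreted or membrane-bound trimers of chains wound into a triple helix. Types I, II, III, V, XI, XXIV and XXVII form fibrils, FACIT collagens such as type IX sit on the surface of fibrils, and type IV builds the sheet of basement membranes, such as the inner limiting membrane, the vessel walls and Bruch's membrane under the retinal pigment epithelium (RPE). Types II and IX, with V and XI, are the fibril collagens of the vitreous, the gel that lies on the retina. Type VIII is found in Bruch's membrane and in Descemet's membrane of the cornea, and type XVIII is the source of endostatin and a collagen of ocular basement membranes.

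Retina libraries held 13732959 to 36354094 counts and sorted rods 7289460 to 19864491. Values are CPM, the counts of a gene relative to the size of its library, scaled by TMM factors within an experiment, and 3 counts were taken as the floor. Collagens took 0.0915% to 0.206% of the counts of a retina library and 0.0165% to 0.0323% in sorted rods. In every retina library 40 members were above the floor. In sorted rods 23 were above it in every library, 7 were at or under it in every library, and 2 were at 0 in all. The sorted libraries carried 12 rod markers at a summed 54725 to 83484 CPM, while Rpe65, a defining RPE enzyme, was at 0 in all of them. Of 12 RPE markers 2 were at 0 in every rod library, and the list summed to 448 to 651 CPM there, of which Otx2 and Trpm1 made 435 to 639 CPM and the other 10 markers 12.1 to 15.5 CPM. DZNep-treated library 2 stood apart: 12 lens markers summed to 90.0 CPM in it and to at most 14.3 in any other retina library, and 7 melanocyte markers to 199.9 CPM. It and UNC0642 control 2 also held the vitreous proteoglycan Optc (opticin) at 170 and 167 CPM, while the remaining UNC0642 libraries and DZNep-treated library 1 had 3.76 to 9.32. Whether any library holds tissue of the ciliary body or lens was not tested.

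Before treatment, Col23a1, a transmembrane collagen, was the most abundant member per length. Over the 12 control retinas it averaged 34.2 ± 7.90 CPM per kb of exon (SD, n = 12), followed by the type IX chain Col9a1 at 28.5 ± 14.1, Col18a1 at 22.8 ± 17.6 and the type II chain Col2a1 at 21.1 ± 5.48. The spreads of these 4 overlap, and the order among them does not hold library by library. Col4a1 and Col4a2, the chains of the common type IV network, came next at 17.5 ± 4.65 and 14.4 ± 3.72. By class, FACIT collagens took 24.7% of the summed CPM per kb on average, type IV 19.2%, transmembrane collagens 19.1%, fibrillar collagens 16.3%, multiplexins 9.52%, type VI 7.74%, short-chain collagens 2.78% and type VII 0.678%. Col1a1, the main chain of type I collagen in most tissues, was low at 0.566 ± 0.439 CPM per kb and ranked 30 of 43.

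Sorted rods had another order. In the 2 control libraries Col20a1, a FACIT collagen, was highest at 7.34 and 3.13 CPM per kb, then Col4a1 at 5.02 and 4.34, Col19a1 at 3.79 and 2.63 and Col5a3 at 3.26 and 2.57. Col19a1, which ranked 35 in retina at 0.255 CPM per kb, ranked 3 here, while Col23a1 was at 0.816 and 0.847 CPM per kb, Col18a1 at 0.476 and 0.517 and Col2a1 at 0.577 and 0.495. By the study's methods rods and retinas were prepared with different library kits, and they were scaled apart, so these levels are set side by side without a test.

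**Figure D1:**
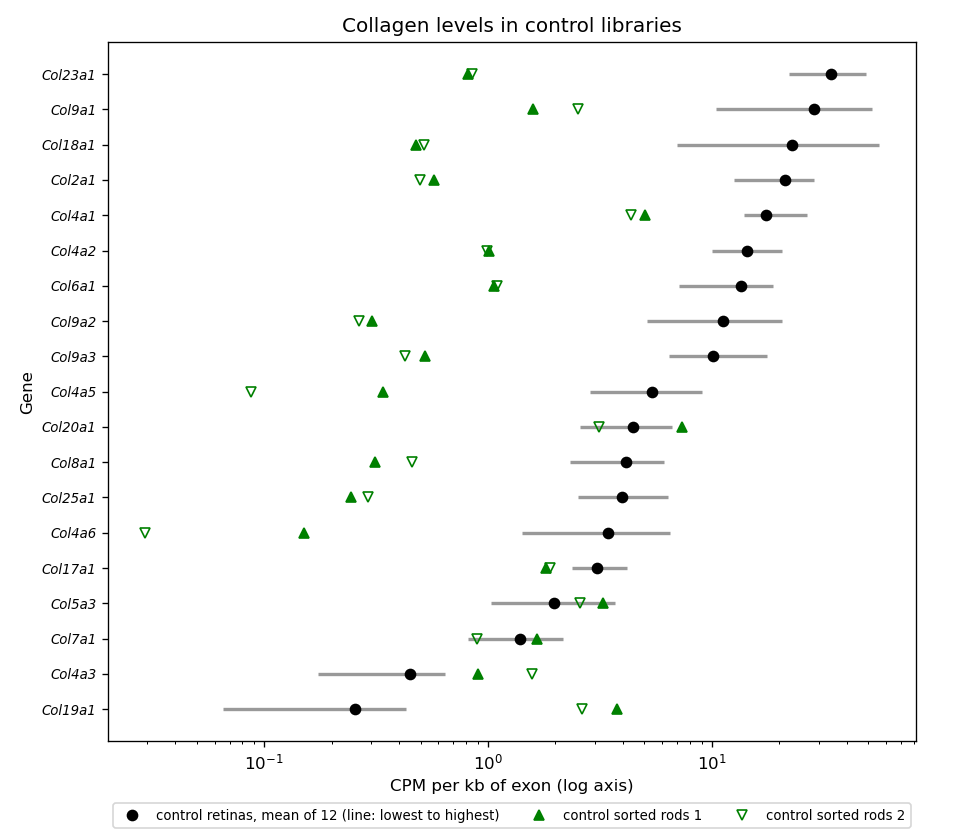
Levels of the collagen genes that ranked 15 or higher in control retinas or in control sorted rods, in CPM per kb of exon on a log axis. Black points are means of 12 control retinas with the lowest to highest library as a line, and triangles are the 2 control rod libraries; Col23a1, Col9a1, Col18a1 and Col2a1 lead in retina, and Col20a1, Col4a1, Col19a1 and Col5a3 in rods.

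Promoter windows, 250 bases before to 50 after the start, are shown for the collagens with changes called below that had such a window. They are RefSeq sequences on GRCm38.p6, a later build than the NCBIM37 of the counts, written 5′ to 3′ on the strand of the gene. Col4a4 and Col4a3 start 71 bases apart on opposite strands of chromosome 1, in the annotation of NCBIM37 as in RefSeq, so the 1 window of Col4a4 covers both starts; capitals mark the bases between them. It lies at chr1:82586800-82587099, minus strand.
Col4a4: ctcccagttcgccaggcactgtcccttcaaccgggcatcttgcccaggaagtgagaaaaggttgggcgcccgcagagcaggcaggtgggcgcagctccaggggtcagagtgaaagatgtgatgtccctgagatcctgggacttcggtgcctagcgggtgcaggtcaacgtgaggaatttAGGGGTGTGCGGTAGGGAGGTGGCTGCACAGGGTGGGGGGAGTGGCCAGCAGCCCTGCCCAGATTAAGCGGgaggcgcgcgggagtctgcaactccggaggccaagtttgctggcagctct
The windows of the type VIII pair are at chr16:57754688-57754987, minus strand, for Col8a1 and chr4:126286544-126286843, plus strand, for Col8a2.
Col8a1: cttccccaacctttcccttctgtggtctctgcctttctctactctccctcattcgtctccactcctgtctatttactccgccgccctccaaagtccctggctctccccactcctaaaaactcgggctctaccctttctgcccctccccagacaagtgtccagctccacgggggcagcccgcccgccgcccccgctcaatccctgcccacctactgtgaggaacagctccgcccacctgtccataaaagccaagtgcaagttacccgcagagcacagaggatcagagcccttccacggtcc
Col8a2: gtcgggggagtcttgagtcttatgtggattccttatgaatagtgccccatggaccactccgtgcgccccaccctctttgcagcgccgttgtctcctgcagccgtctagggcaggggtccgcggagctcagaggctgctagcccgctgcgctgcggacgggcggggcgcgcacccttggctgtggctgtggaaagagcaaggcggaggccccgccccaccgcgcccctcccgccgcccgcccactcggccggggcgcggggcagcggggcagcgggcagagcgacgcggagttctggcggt
Col5a3 starts in chr9:20815018-20815317, minus strand; capitals mark a CCAAT box, searched as CCAAT on either strand.
Col5a3: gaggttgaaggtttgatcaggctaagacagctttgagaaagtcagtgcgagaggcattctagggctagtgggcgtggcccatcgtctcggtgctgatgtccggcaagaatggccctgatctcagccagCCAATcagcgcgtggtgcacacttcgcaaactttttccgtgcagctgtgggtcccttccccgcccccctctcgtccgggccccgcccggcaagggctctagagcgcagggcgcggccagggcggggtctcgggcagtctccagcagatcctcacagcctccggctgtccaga
The box was in the Col5a3 window and not in the other 3 shown. Col1a1, Col9a3, Col22a1 and Col4a3, also called in a comparison, had no window of their own and were not searched under their own names. A CCAAT box was found in 13 of the 38 windows of the 35 collagens that had a window (34.2%) and in 37.4% of all 32851 windows. GC content was 63.3% for Col4a4 and Col5a3, 60.3% for Col8a1 and 71.7% for Col8a2. The median was 52.7% over all windows and 59.8% over the collagen windows. The Col8a2 window held 32 CpG, against a median of 7 over all windows and 11.5 over the collagen windows.

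Each treatment was compared with its own controls by edgeR's quasi-likelihood test over all genes that passed the filter on low counts. Called genes had a Benjamini-Hochberg adjusted p under 0.05 and a log2 fold change beyond 1 in either direction. The filter kept 41 collagens for DZNep, 40 for UNC1999, 41 for UNC0642, 40 for Romidepsin and 26 for the rods. DZNep changed 4 of 41 (all higher), where 1.71% of all genes tested were called, and UNC1999 changed 3 of 40 (all higher), where 0.368% were. Romidepsin raised 2 and lowered 1 of 40, where 0.561% of all genes were called. At any fold, 5 collagens were higher and 4 lower after DZNep (22.7% of all genes passed the adjusted p), 4 were higher after UNC1999 (0.602%), and the same 3 passed after Romidepsin (0.748%).

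In the other comparisons no collagen was called by edgeR's quasi-likelihood test. After UNC0642, 0 of 41 passed the adjusted p at any fold, as did 0% of all genes; 11 had an unadjusted p under 0.05 (14.7% of all genes did), and the likelihood ratio test and DESeq2 called 0. In the sorted rods 0 of 26 passed, again as 0% of all genes. There 6 had an unadjusted p under 0.05 (4.91% of all genes). The likelihood ratio test and DESeq2 called 2 rod collagens each, Col2a1 and Col5a3, with the share of all genes not given here. The study, with its likelihood ratio test at the same thresholds, reported called genes for UNC0642 and for the sorted rods. For the rods it placed collagen metabolism among the raised pathways. Counts of members whose libraries did not overlap between arms were 17 for DZNep (8 higher, 9 lower; 45.9% of all genes), 9 for UNC1999 (6 and 3; 27.4%), 21 for UNC0642 (5 and 16; 52.1%), 18 for Romidepsin (9 and 9; 26%) and 15 for the rods (14 and 1; 33.2%). The median log2 fold change of the collagens tested was -0.05, 0.17, -0.13, -0.13 and 0.58 in the same order, and that of all genes tested lay between -0.01 and 0. A gene can pass the filter on low counts through its treated libraries alone. The rod median and the 14 rod members that were higher are therefore not read as a shift.

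**Figure D2:**
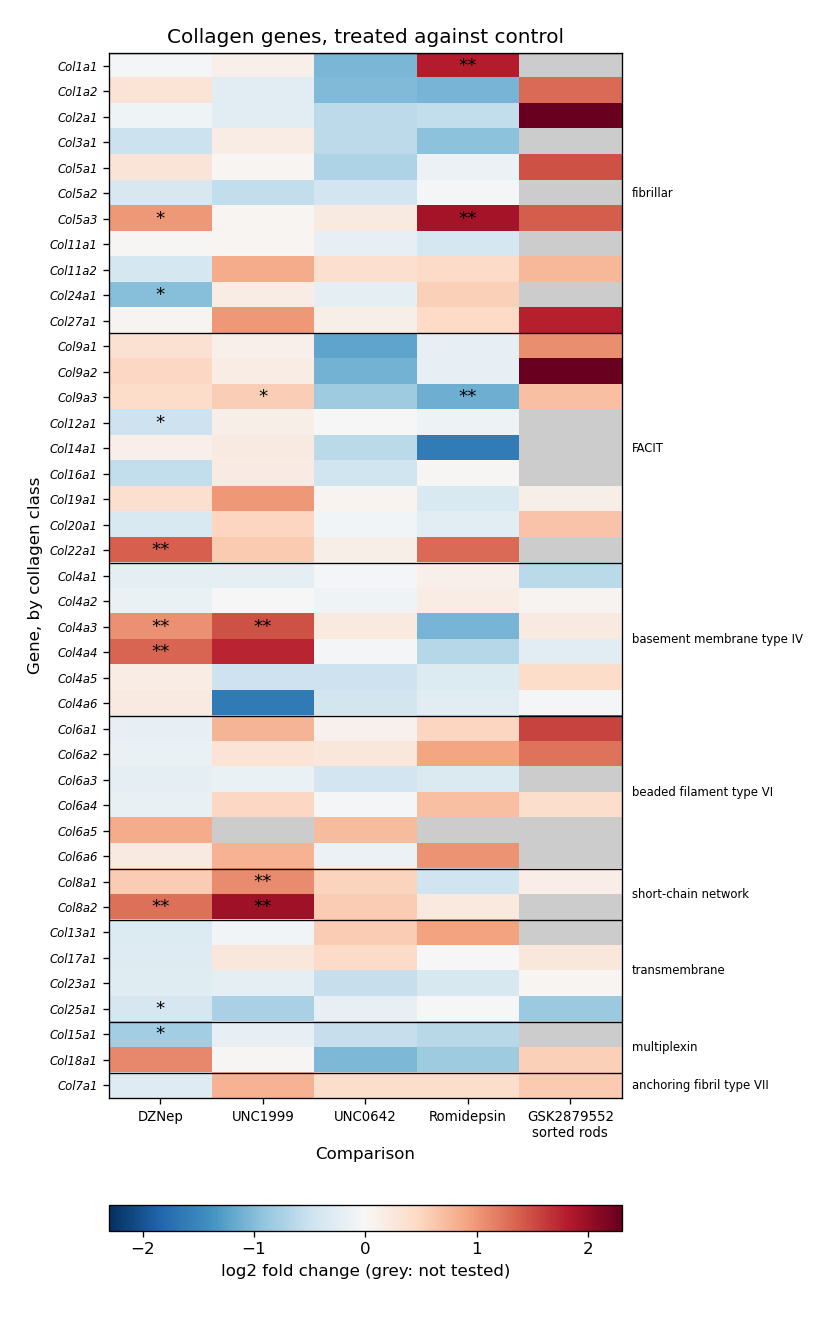
Log2 fold change (colour) of each collagen tested in any comparison, treated against its own controls, with genes by class as rows and comparisons as columns; grey cells were not tested. Double stars mark called genes and single stars an adjusted p under 0.05 at a smaller fold; Col4a3, Col4a4, Col8a1 and Col8a2 are high in the DZNep and UNC1999 columns, and Col1a1 and Col5a3 in the Romidepsin column.

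The EZH2 inhibitors raised chains of 2 pairs, Col4a3 with Col4a4 and Col8a1 with Col8a2. Col4a3 and Col4a4 encode chains that join the Col4a5 chain in the network of mature basement membranes, the one affected in Alport syndrome. Col8a1 and Col8a2 encode the chains of type VIII.

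Col4a4 (ENSMUSG00000067158, chromosome 1, 82447298 to 82583424, minus strand, NCBIM37) was at 4.23, 5.15, 4.06 and 5.58 CPM in the DZNep controls and at 11.9 and 12.3 after DZNep. Both treated libraries were above all controls, at a log2 fold change of 1.34 ± 0.14 (SE; adjusted p = 0.000784). In the UNC1999 experiment it was at 2.41, 3.46 and 6.90 CPM in controls and 18.3, 14.1 and 10.8 in treated retinas, again with no overlap. That change, 1.75 ± 0.36, missed the threshold (adjusted p = 0.0582).

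Col4a3 (ENSMUSG00000079465, chromosome 1, 82583496 to 82718634, plus strand) moved with its neighbour. It was at 6.42, 5.47, 4.01 and 5.62 CPM in the DZNep controls and at 11.6 and 10.7 after DZNep (log2 fold change 1.05 ± 0.16, adjusted p = 0.00294). UNC1999 controls had 3.49, 3.96 and 6.24 CPM and treated retinas 12.2, 14.5 and 11.3 (1.47 ± 0.22, adjusted p = 0.0408). The treated libraries lay above every control in both experiments. The other type IV chains did not do the same: Col4a1 and Col4a2, which also start head to head, with 22 bases of overlap on chromosome 8, had log2 fold changes of -0.23 and -0.15 after DZNep and -0.21 and 0.01 after UNC1999, none with an adjusted p under 0.05. Col4a6, whose start lies 1308 bases from that of Col4a5 on chromosome X, was at 31.0, 28.2 and 13.7 CPM in UNC1999 controls and at 5.78, 10.7 and 7.00 in treated retinas, a log2 fold change of -1.63 ± 0.33 with an adjusted p of 0.0574.

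Col8a2 (ENSMUSG00000056174, chromosome 4, 125964037 to 125991574, plus strand) had the largest called change of the family. It was at 5.80, 6.77 and 9.81 CPM in UNC1999 controls and at 33.7, 27.4 and 25.7 in treated retinas, a log2 fold change of 1.95 ± 0.20 (adjusted p = 0.0112). DZNep controls held 7.97, 6.67, 3.51 and 6.80 CPM and treated retinas 14.3 and 15.9 (1.27 ± 0.24, adjusted p = 0.00728). The arms did not overlap in either experiment. Its partner Col8a1 (ENSMUSG00000068196, chromosome 16, 57624371 to 57754850, minus strand) was at 31.4, 24.8 and 25.8 CPM before and 63.4, 60.2 and 49.6 after UNC1999 (1.08 ± 0.12, adjusted p = 0.0170). After DZNep it was at 29.2 and 29.1 CPM against 18.4, 21.2, 11.9 and 26.1 in controls, a change of 0.58 ± 0.23 that did not pass (adjusted p = 0.103).

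Markers of the RPE were also higher after both EZH2 inhibitors. Of 12 RPE markers (1 of them, Trpm1, is also a bipolar cell marker), 11 were higher after UNC1999, with 8 called and a median of 1.68 on the log2 scale, and 11 were higher after DZNep, with 5 called and a median of 1.08. Their summed level was 576 to 611 CPM in UNC1999 controls and 814 to 875 after treatment, and 614 to 736 and 747 to 795 CPM for DZNep. Most of this sum in controls was Otx2 and Trpm1, which were also high in sorted rods. Without these 2 genes, left out after their values were seen, the other 10 summed to 125 to 139 CPM in UNC1999 controls and 397 to 455 after treatment, and to 65.8 to 167 and 230 to 271 CPM for DZNep. Rpe65 itself was at 4.26, 5.86 and 12.0 CPM before and 45.2, 36.9 and 32.3 after UNC1999. After Romidepsin 2 of the 12 were higher (median -0.65), and there Col4a3 was lower in all 3 treated libraries, 2.60, 1.32 and 2.28 CPM against 4.72, 4.86 and 3.43 in controls (-1.06 ± 0.29, adjusted p = 0.0997). Col8a1 was lower there (-0.46), while Col4a4 (-0.66) and Col8a2 (0.22) had overlapping arms. After UNC0642 the 10 RPE markers summed to 77.0 to 147 CPM in controls and 173 to 193 in treated retinas. Col4a3 (0.23), Col4a4 (-0.02) and Col8a2 (0.59) had overlapping arms there, and Col8a1 was higher (0.51). Melanocyte markers were higher after UNC1999 in 6 of 6 tested. Other lists also shifted after UNC1999 without a member that passed the adjusted p: rod markers had higher values in 12 of 12 (median 0.97), at a summed 19927 to 37639 CPM in controls and 51037 to 69165 after treatment, and microglia markers lower values in 10 of 10 (median -1.10), at 219 to 342 and 135 to 170 CPM. The part of any of these in the collagen changes was not tested, and in whole retinas more cells of a type and more RNA per cell cannot be told apart.

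DZNep also raised Col22a1, a FACIT collagen of tissue junctions, at low counts. It was at 1.41, 0.874, 0.877 and 0.956 CPM in controls and at 2.31 and 3.13 in treated retinas (1.37 ± 0.26, adjusted p = 0.00785; ENSMUSG00000079022, chromosome 15, 71626225 to 71864657, minus strand). Its exons overlap those of the antisense gene Gm16308, with the strand setting not given. Col5a3, a minor chain of type V collagen, was at 10.8, 9.02, 7.01 and 7.53 CPM in controls and 19.2 and 14.7 after DZNep; its log2 fold change of 0.998 ± 0.17 (adjusted p = 0.00491) lies just inside the fold limit and was not called. Lower with an adjusted p under 0.05 were Col24a1 (-0.98, adjusted p = 0.0128), a fibrillar collagen, Col15a1 (-0.80, adjusted p = 0.0241), a multiplexin of vessel basement membranes, the FACIT collagen Col12a1 (-0.48, adjusted p = 0.0182) and the transmembrane collagen Col25a1 (-0.38, adjusted p = 0.0331). After DZNep 9 of the 41 collagens tested passed the adjusted p at any fold, near the 22.7% of all genes that did. Endothelial markers had lower values in 9 of 12 after DZNep, at a summed 667 and 702 CPM against 815 to 854 in controls; 2 of them passed the adjusted p. Müller glia markers were lower in 8 of 8, all with an adjusted p under 0.05, at a summed 6519 and 7104 CPM against 8634 to 9287 in controls, and bipolar cell markers had lower values in 8 of 8, of which 6 passed. The part of these lists in the collagens that were lower was not tested. Rod markers rose in 12 of 12, from a summed 18614 to 31175 CPM in controls to 57115 and 58887.

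Single libraries mattered to the counts, which are given without the share of all genes called in the same fit. Leaving out DZNep-treated library 2, the one with the lens markers, gave 7 called collagens, among them Col5a3 higher (1.16) and Col11a1 (-1.16) and Col24a1 lower, and kept the 4 of the full comparison. Without DZNep control 1, which had the most Optc of the controls, 7 were called. Without DZNep-treated library 1, Col4a3 and Col8a2 were lost and Col18a1 (1.92) and Col9a2 (1.12) were called, and without control 3 Col4a3 was lost. The fits with 1 DZNep-treated library assume that it varies like the controls. For UNC1999 all 3 calls were lost without control 2 or without treated library 2, with log2 fold changes of 1.88 and 1.99 for Col8a2, 1.01 and 1.05 for Col8a1 and 1.37 and 1.36 for Col4a3. Col8a2 alone was called without treated library 1, Col4a3 was lost without control 1 or treated library 3, and 11 collagens were called without control 3.

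**Figure D3:**
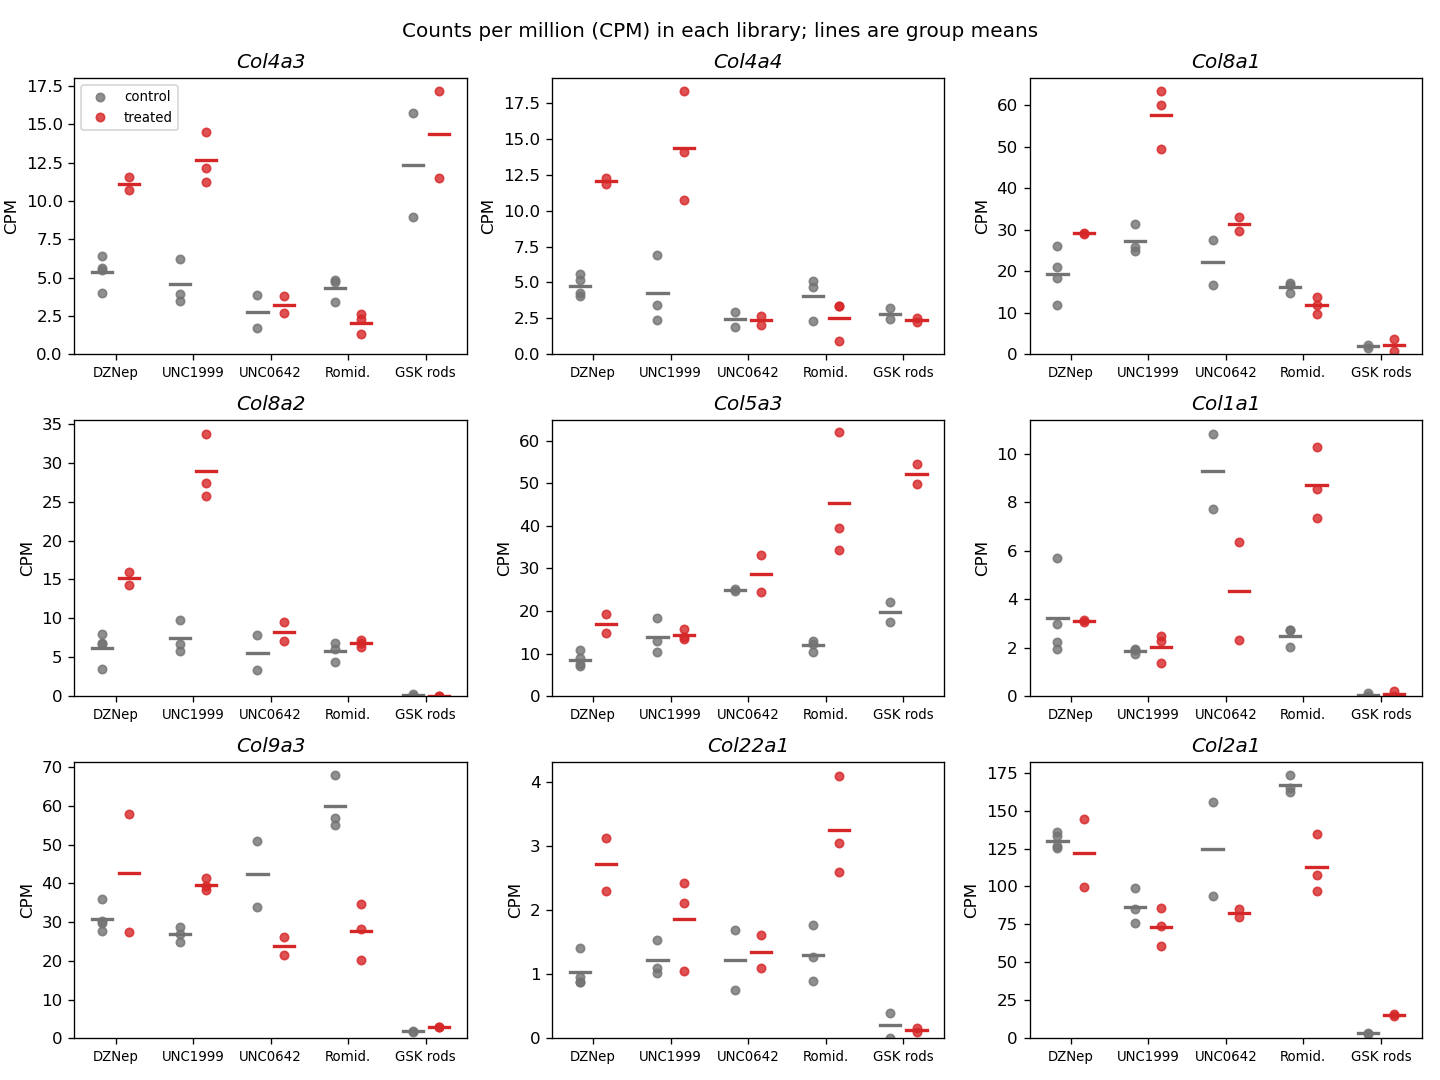
CPM of 9 collagen genes in every library (points; grey controls, red treated), with group means as lines and experiments along the horizontal axis; CPM are scaled within an experiment. Col4a3, Col4a4 and Col8a2 separate the arms after DZNep and UNC1999, Col5a3 and Col1a1 after Romidepsin, and Col2a1 and Col5a3 in sorted rods.

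After Romidepsin 2 fibrillar chains rose, Col5a3 and Col1a1. Col5a3 (ENSMUSG00000004098, chromosome 9, 20574494 to 20619511, minus strand) was at 10.3, 13.1 and 12.4 CPM in controls and at 34.3, 39.4 and 62.0 in treated retinas, a log2 fold change of 1.92 ± 0.23 (adjusted p = 0.0269). Col1a1 (ENSMUSG00000001506, chromosome 11, 94797538 to 94814356, plus strand) went from 2.74, 2.03 and 2.74 CPM to 7.35, 8.55 and 10.3 (1.80 ± 0.22, adjusted p = 0.0269). Every treated library was above every control for both. Its exons overlap those of the antisense gene Gm17329, and as it is not given whether counting used the strand, reads of the pair cannot be told apart.

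The partner chain of type I had a value of the other sign. Col1a2 was at 40.9, 61.4 and 43.9 CPM in controls and at 30.6, 19.6 and 19.1 after Romidepsin (-1.08 ± 0.22, adjusted p = 0.0638). Type I procollagen is normally built from both chains. Per kb of exon, Col1a2 exceeded Col1a1 8.08, 16.3 and 8.65 times in the 3 controls and 2.25, 1.24 and 1.01 times in the treated retinas, and 1.77 to 7.24 times in the 16 libraries of the other 3 retina experiments. The other chains of type V did not follow Col5a3: Col5a1 had a log2 fold change of -0.14 ± 0.21 and Col5a2 of -0.03 ± 0.27, neither with an adjusted p under 0.05. Col3a1, the fibrillar chain of type III, was at 9.86, 10.8 and 10.5 CPM and at 5.37, 7.501 and 3.40 after Romidepsin (-0.94 ± 0.27, adjusted p = 0.108).

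Smaller values in the same direction were seen in type VI, the beaded filaments around cells. Col6a2 was at 16.5, 16.0 and 14.5 CPM in controls and 23.6, 28.0 and 35.9 after Romidepsin (0.90 ± 0.17, adjusted p = 0.0564), and Col6a1 at 63.8, 57.4 and 50.4 and then 74.2, 75.9 and 90.8 (0.49 ± 0.13, adjusted p = 0.102). Neither passed, though the arms did not overlap. Col22a1 was at 0.890, 1.76 and 1.27 CPM and then 3.05, 2.59 and 4.10 (1.30 ± 0.31, adjusted p = 0.0790), close in size to its change after DZNep. The sum of 10 fibroblast markers was 514 to 570 CPM in controls and 404 to 448 after Romidepsin, with 2 of 6 tested higher. Mural cell markers were at 228 to 268 and 212 to 265 CPM, with 5 of 11 higher. Astrocyte markers were at 406 to 684 and 629 to 696 CPM, with 4 of 6 higher. The part of any of these lists in the collagen values was not tested.

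The collagen called lower after Romidepsin was Col9a3, a chain of type IX. It was at 56.7, 67.9 and 55.2 CPM in controls and at 34.7, 28.3 and 20.2 in treated retinas (-1.11 ± 0.20, adjusted p = 0.0490; ENSMUSG00000027570, chromosome 2, 180332495 to 180356894, plus strand). The arms did not overlap. Its exons overlap those of Tcfl5 on the other strand. The other type IX chains had much smaller values, -0.19 ± 0.17 for Col9a1 and -0.19 ± 0.18 for Col9a2, with overlapping arms. Col18a1 was at 261, 392 and 297 CPM before and 245, 158 and 133 after Romidepsin (-0.82 ± 0.24, adjusted p = 0.113), and Col2a1 at 165, 173 and 162 and then 135, 107 and 96.9 (-0.56 ± 0.14, adjusted p = 0.0824).

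Optc was called lower beside them, from 136, 221 and 212 CPM to 81.3, 51.0 and 33.4 (-1.78, adjusted p = 0.0491). All 3 Romidepsin controls held more Optc than any control of DZNep or UNC1999, which had 3.49 to 48.9 CPM. Müller glia markers had lower values in 8 of 8, at a summed 8727 to 10064 CPM in controls and 6633 to 7329 after Romidepsin. The part of either in the values of Col9a3, Col18a1, Col2a1 and Col1a2 was not tested. All 3 Romidepsin calls were lost without control 2, without control 3 or without treated library 3, where the log2 fold changes were 1.63 to 1.99 for Col5a3, 1.67 to 1.88 for Col1a1 and -1.17 to -0.92 for Col9a3. Without treated library 1 the test called 6 collagens (share of all genes not given here), and without control 1 Col9a3 was lost.

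Several abundant collagens differed between replicates of 1 group in the same libraries as Optc. In the 2 DZNep-treated retinas, with 3.76 and 170 CPM of Optc, Col18a1 was at 49.3 and 307 CPM, Col9a2 at 19.4 and 59.8 and Col1a2 at 18.9 and 41.9. In the 2 UNC0642 controls, with 5.01 and 167 CPM of Optc, Col18a1 was at 105 and 332 CPM, Col9a2 at 15.9 and 53.6 and Col1a2 at 25.3 and 68.0. DZNep control 1, with 48.9 CPM of Optc against 4.05 to 10.99 in the other 3 controls, had 133 CPM of Col18a1 against 59.8 to 71.1 and 56.4 CPM of Col1a2 against 10.9 to 14.8. The library with more Optc had more of each of these collagens in all 3 cases. These collagens were set beside Optc after their values were seen, so their agreement with it is not a test. Zic1 and Cldn2, ciliary body markers named here after their values were seen, were also higher in the first 2 cases: Cldn2 was at 0.525 and 14.3 CPM in the DZNep-treated retinas and at 0.247 and 11.9 in the UNC0642 controls, and Zic1 at 10.4 and 30.2 and at 13.1 and 34.7. The sum of 10 ciliary body and cornea markers was 44.2 and 95.6 CPM in the DZNep-treated retinas and 53.8 and 117 in the UNC0642 controls. It was 63.8 CPM in DZNep control 1 against 42.5 to 49.4 in the other controls. In the Romidepsin experiment, where Optc was lower after treatment, this sum was 83.2, 103 and 101 CPM in controls and 100, 67.3 and 101 in treated retinas. Col5a3 was lower in the DZNep-treated retina with more Optc (19.2 and 14.7 CPM), was at 24.6 and 25.2 CPM in the UNC0642 controls, and was highest in DZNep control 1 among its group (10.8 CPM against 7.01 to 9.02).

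**Figure D4:**
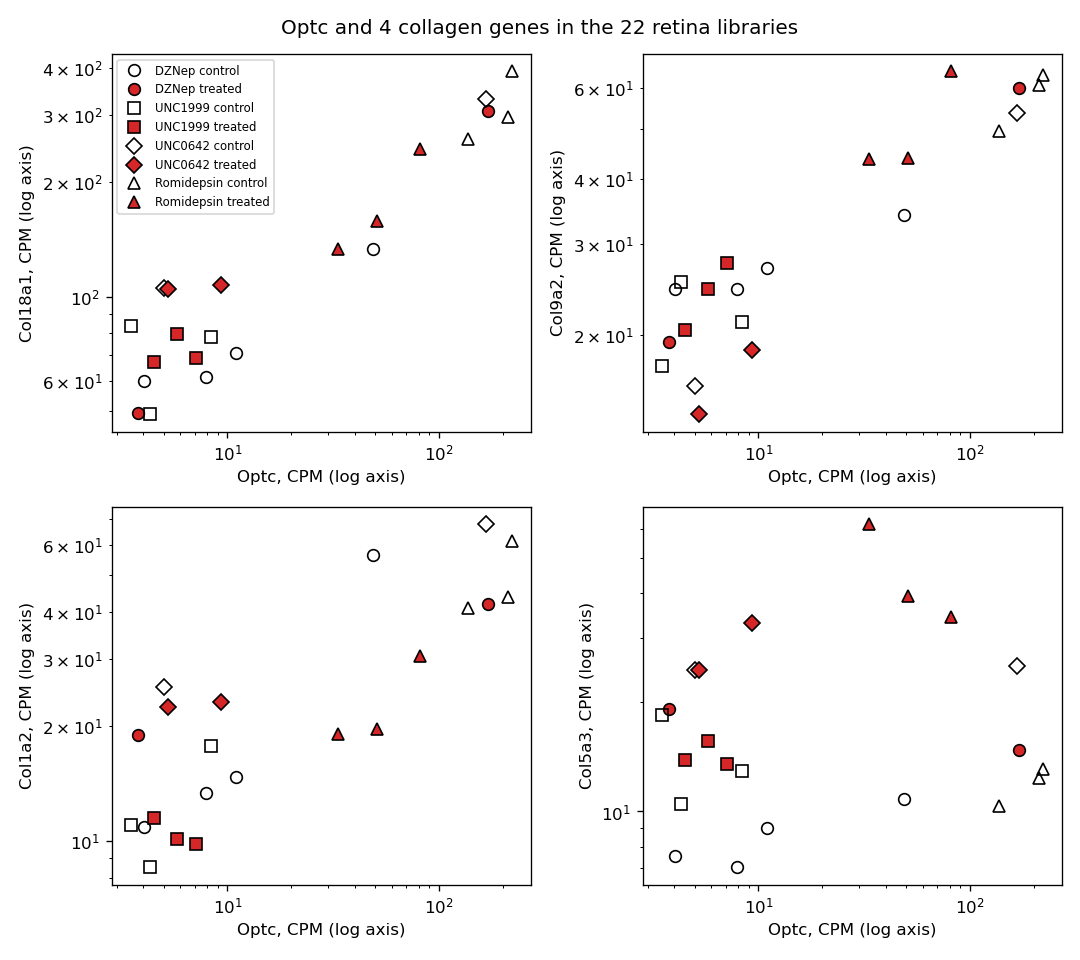
CPM of Col18a1, Col9a2, Col1a2 and Col5a3 against CPM of Optc in the 22 retina libraries, on log axes, with open symbols for controls and filled ones for treated retinas of each experiment. Col18a1, Col9a2 and Col1a2, picked for this plot after their values were seen, are high where Optc is high, as in 1 of the 2 UNC0642 controls and 1 of the 2 DZNep-treated retinas. Col5a3 is highest in the Romidepsin-treated retinas.

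The UNC0642 values rest on these 2 unlike controls. Col9a1 was at 92.3 and 228 CPM in controls and 70.8 and 66.3 in treated retinas (-1.22 ± 0.38, adjusted p = 0.304). Col18a1 was at 105 and 332 CPM and then 105 and 107 (-1.04 ± 0.47, adjusted p = 0.353). In both genes control 2 made most of the difference, and control 2 was the library with 167 CPM of Optc against 5.01 in control 1. Without control 1, so that control 2 stood alone and was assumed to vary like the treated libraries, 5 collagens were called lower (Col18a1, Col9a1, Col9a3, Col9a2 and Col1a2). Without control 2 the same fit called none of them.

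Col9a1 was among the 11 collagens with an unadjusted p under 0.05 after UNC0642, and Col18a1 was not. Others among the 11 were Col9a3 (-0.82) and Col5a1 (-0.70), both lower with arms that did not overlap. Col23a1 was at 188 and 230 CPM in controls and 149 and 140 in treated retinas (-0.53 ± 0.11, adjusted p = 0.299). Col1a1 was at 7.72 and 10.8 CPM and then 6.36 and 2.33 (-1.06 ± 0.42, adjusted p = 0.337), below its controls where Romidepsin put it above. Col17a1, a transmembrane collagen of anchoring junctions, was the only one of the 11 that was higher, at 22.02 and 22.3 CPM and then 26.6 and 34.1 (0.45 ± 0.13, adjusted p = 0.299). Col5a3 was at 24.6 and 25.2 CPM and then 24.5 and 33.1 (0.20 ± 0.15, adjusted p = 0.515).

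In sorted rods treated with GSK2879552, Col2a1 and Col5a3 had the smallest p-values of the family. Col2a1 (ENSMUSG00000022483, chromosome 15, 97806033 to 97835155, minus strand), the chain of type II collagen, was at 3.48 and 2.99 CPM in control rods and at 14.9 and 16.2 in treated rods. These values rest on 26 and 51 counts and on 287 and 161 counts. The log2 fold change was 2.28 ± 0.37 with an unadjusted p of 0.000197 and an adjusted p of 0.360. Col5a3 was at 22.2 and 17.5 CPM in controls and at 49.9 and 54.4 after GSK2879552, from 166 to 959 counts (1.40 ± 0.25, adjusted p = 0.360). For both genes the treated libraries were above the controls, and neither passed the adjusted p.

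Type IX and type VI chains had values in the same direction. Col9a2 was at 0.936 and 0.820 CPM, from 7 and 14 counts, and then 3.12 and 5.45 (2.28 ± 0.66, adjusted p = 0.836), and Col9a1 at 8.16 and 12.9 and then 21.1 and 23.8 (1.07 ± 0.33, adjusted p = 0.908). Col6a1 was at 4.68 and 4.80 CPM and then 6.24 and 22.1, so that most of its log2 fold change of 1.56 came from treated library 2. Col4a1 was the only one of the 6 with an unadjusted p under 0.05 that was lower, at 34.2 and 29.6 CPM and then 19.9 and 21.6 (-0.62 ± 0.26, adjusted p = 0.987). Of the 26 collagens tested 22 were higher and 4 lower; 17 were not tested, 12 of those tested had under 20 counts in a control library, and a gene can pass the filter through its treated libraries alone. The fibrillar share of the collagen CPM per kb was 14.0% to 14.1% in control rods and 23.8% to 27.1% in treated rods.

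Markers of other cells were present in the sorted rods at low levels. The sum of 8 Müller glia markers was 329 and 500 CPM in controls and 533 and 537 in treated rods, with 7 of 8 higher (median log2 fold change 0.48), that of 12 endothelial markers 55.1 and 58.2 and then 77.1 and 73.0, and that of 10 fibroblast markers 2.94 and 1.76 and then 2.34 and 2.72, with 6 of 10 at 0 throughout. Cone markers had lower values in 8 of 8. Their part in the collagen values was not tested. Without treated library 1 the quasi-likelihood test called Col2a1 (2.34), Col5a3 (1.47) and Col6a1 (2.22), and without treated library 2 Col2a1 (2.22) and Col5a3 (1.34); each such fit has 1 treated library, assumed to vary like the controls. Leaving out a control in place of a treated library gave neither call.

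**Figure D5:**
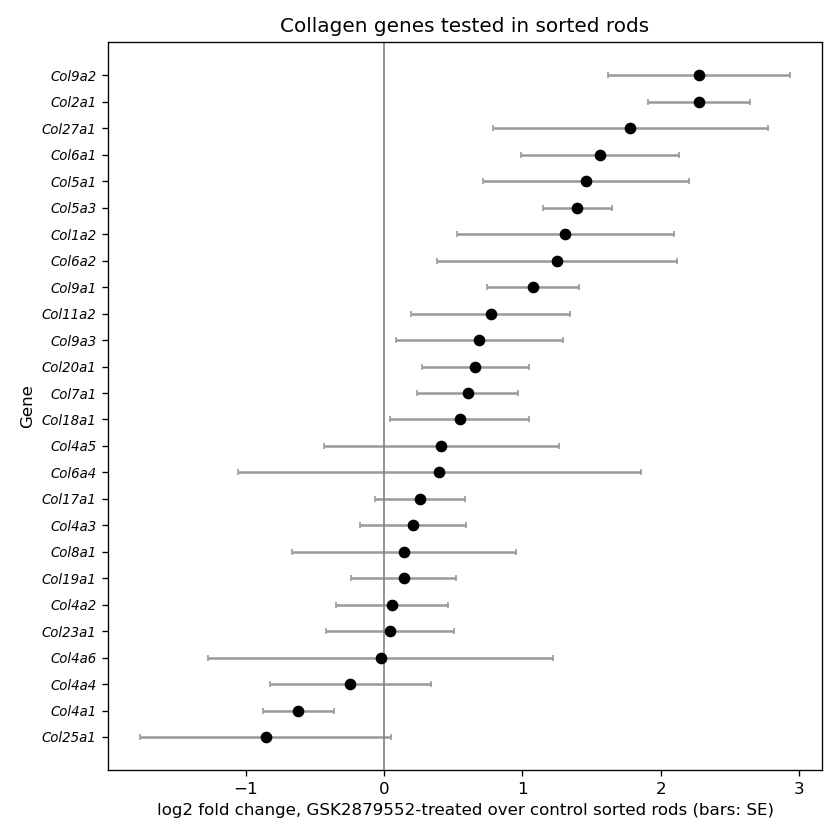
Log2 fold change with its standard error (bars) for the 26 collagen genes tested in sorted rods, GSK2879552-treated over control, 2 libraries each. Col9a2 and Col2a1 lie highest at 2.28, Col25a1 lowest at -0.86, and 22 of the 26 points are above 0, none with an adjusted p under 0.05. A gene can pass the filter on low counts through its treated libraries alone, so the number above 0 is not read as a shift.

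Col5a3 was thus higher in Romidepsin-treated retinas and in DZNep-treated retinas with an adjusted p under 0.05, and higher without passing it in GSK2879552-treated rods. After UNC1999 it was at 13.5, 13.9 and 15.7 CPM against 18.4, 12.9 and 10.5 in controls (0.05 ± 0.19, adjusted p = 0.909). Col1a1 was at 3.06 and 3.13 CPM after DZNep against 5.69, 2.99, 1.94 and 2.25 (-0.05 ± 0.39) and at 2.48, 1.36 and 2.27 CPM after UNC1999 against 1.95, 1.75 and 1.90 (0.12 ± 0.26). In sorted rods Col1a1 had at most 2 counts in any library and was not tested. Col2a1 was at 99.4 and 144 CPM after DZNep against 125 to 136 in controls (-0.11 ± 0.12), and at 86.0, 73.7 and 60.9 CPM after UNC1999 against 75.8, 85.2 and 99.2 (-0.24 ± 0.14), with overlapping arms in both. None of these 4 values had an adjusted p under 0.05; the smallest was 0.333.

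Among the FACIT collagens, Col9a3 was higher after UNC1999 at a small fold, 41.4, 38.3 and 39.3 CPM against 24.9, 26.8 and 28.8 (0.56 ± 0.08, adjusted p = 0.0308), opposite in sign to its Romidepsin value. Col19a1 was at 4.66, 3.78 and 3.68 CPM after UNC1999 against 1.95, 1.78 and 2.29 (1.00 ± 0.19, adjusted p = 0.0533). In type VI 4 of 5 tested chains were higher after UNC1999, led by Col6a6 (0.79) and Col6a1 (0.78), and 4 of 5 after Romidepsin, and none was called. Col7a1 of the anchoring fibrils ranged from -0.29 after DZNep to 0.80 after UNC1999.

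The 3 most abundant members per length did not reach an adjusted p under 0.05 in any comparison. Col23a1 (ENSMUSG00000063564, chromosome 11, 51103422 to 51397420, plus strand) was at 201, 184, 186 and 197 CPM in DZNep controls and at 129 and 188 in treated retinas (-0.29 ± 0.12). In the UNC1999 experiment it was at 127, 143 and 143 CPM and then 136, 110 and 113 (-0.21 ± 0.09), and for Romidepsin at 228, 279 and 249 and then 231, 170 and 182 (-0.38 ± 0.15). Its log2 fold change was below 0 in all 4 retina experiments, with arms that overlapped in these 3. Col9a1 (ENSMUSG00000026147, chromosome 1, 24184449 to 24259577, plus strand) was at 144, 113, 116 and 98.5 CPM and then 101 and 203 for DZNep, and at 53.4, 87.1 and 92.9 and then 116, 70.7 and 68.9 for UNC1999. Both sets overlap, and DZNep-treated library 2, with the most Optc of the DZNep libraries, had the highest value among them. Col18a1 (ENSMUSG00000001435, chromosome 10, 76514923 to 76629293, minus strand) was at 83.9, 78.2 and 48.95 CPM and then 69.0, 67.1 and 79.9 for UNC1999, a log2 fold change of 0.03 ± 0.18.

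Col8a1 was called after UNC1999, Col8a2 after DZNep and UNC1999, and Col9a3 after Romidepsin. After UNC0642 Col8a1 was at 29.7 and 33.0 CPM against 16.8 and 27.5 in controls (0.51 ± 0.22, adjusted p = 0.346) and Col8a2 at 9.49 and 7.14 against 3.37 and 7.85 (0.59 ± 0.39, adjusted p = 0.481). Col8a1 had the same sign after DZNep, UNC1999 and UNC0642 and the opposite one after Romidepsin, at 13.9, 9.71 and 11.8 CPM against 17.2, 16.8 and 14.8 (-0.46 ± 0.17, adjusted p = 0.186). Col9a3 was at 27.5 and 57.8 CPM after DZNep against 27.7 to 35.9 in controls (0.43 ± 0.24), where treated library 2 alone was high, and at 26.2 and 21.5 after UNC0642 against 33.9 and 51.0 (-0.82 ± 0.20, adjusted p = 0.299).

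In sorted rods the paired genes Col4a3 and Col4a4 were at unlike levels. Col4a3 was at 0.899 and 1.58 CPM per kb in the control libraries, beside 0.173 to 0.644 in the control retinas, and Col4a4 at 0.386 and 0.296, beside 0.227 to 0.830 in the retinas. After GSK2879552 Col4a3 was at 17.2 and 11.5 CPM against 8.96 and 15.7 (0.21 ± 0.39) and Col4a4 at 2.24 and 2.52 against 3.21 and 2.46 (-0.24 ± 0.58), so neither differed beyond the spread of its libraries. Col8a2 had at most 2 counts in a rod library and Col22a1 at most 3, and neither was tested there. Col8a1 was at 1.61 and 2.34 CPM in control rods and 3.59 and 0.706 in treated rods.

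Differences between effects were tested in 1 fit over the 22 retina libraries, for 6 pairs of treatments. Of the 43 collagens, 6 differed between UNC1999 and Romidepsin, where 2.4% of all genes were called. The UNC1999 effect was higher for Col4a3 (by 2.53, adjusted p = 0.00373), Col4a4 (2.40, adjusted p = 0.0187), Col8a2 (1.73, adjusted p = 0.0191), Col9a3 (1.67, adjusted p = 0.00689) and Col8a1 (1.54, adjusted p = 0.00823), and lower for Col5a3 (-1.87, adjusted p = 0.00490). Between DZNep and Romidepsin 3 differed, where 0.237% of all genes did: Col4a3 (2.11, adjusted p = 0.0319) and Col9a3 (1.56, adjusted p = 0.0390) were higher with DZNep, and Col24a1 (-1.51, adjusted p = 0.0368) lower.

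No collagen was called between DZNep and UNC1999 (0.00579% of all genes; 8 at an unadjusted p under 0.05, 1 by the likelihood ratio test and 0 by DESeq2), which does not show that the inhibitors act alike. Between DZNep and UNC0642 (0.0232%) there were 0 calls, 9 unadjusted and 1 by each other tool, between UNC1999 and UNC0642 (0.00579%) 0 calls, 8 unadjusted and 1 by each other tool, and between UNC0642 and Romidepsin (0.0174%) 0 calls, 7 unadjusted and 2 by each other tool. The percentages are shares of all genes called by the quasi-likelihood test. Shares at an unadjusted p under 0.05 or by the other tools are not given here, so those counts cannot be set beside the percentages. The 9 calls became 5 without Romidepsin control 1, 14 without Romidepsin-treated library 1 and 15 without UNC1999 control 3. UNC1999 libraries belong to another library series (H-50) than the other retinas (G-981), and each effect was taken within its series.

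Genes that make and handle collagen were read from 6 lists. Of 20 genes for chain modification and folding, 19 were tested in retina. After DZNep 1 was higher with an adjusted p under 0.05 (P4hb, the shared subunit of prolyl 4-hydroxylase, 0.26) and 4 lower (Plod2, a lysyl hydroxylase, -0.29, and the leprecan family members listed as Leprel1, Leprel2 and Leprel4, -0.39, -0.38 and -0.31). After UNC1999 Plod1 was lower (-0.53, adjusted p = 0.0471). None of these was called, and 5 of 19 is near the 22.7% of all genes that passed the adjusted p after DZNep. Of 15 procollagen proteinases and crosslinking enzymes, 11 were tested: Adamts3, which trims type II procollagen, was higher after DZNep (0.34, adjusted p = 0.0304), and Loxl1, a lysyl oxidase, was lower after Romidepsin (-0.97, adjusted p = 0.0370).

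Among 12 collagen receptors, Cd44 was called lower after DZNep (-1.25, adjusted p = 0.000196) and Ddr1, a kinase that binds collagen, was lower at a small fold (-0.26, adjusted p = 0.0133). Of 10 genes for collagen breakdown, Mmp14, a membrane collagenase, was lower after DZNep (-0.90, adjusted p = 0.000196) and Fap higher (0.98, adjusted p = 0.0154). Microglia markers had lower values in 10 of 10 after DZNep, at 179 and 193 CPM in sum against 210 to 393 in controls, beside the Cd44 value; their part was not tested. Of 17 other basement membrane genes, 16 were tested and 4 were lower after DZNep with an adjusted p under 0.05, again near the 22.7% of all genes (Pxdn, the peroxidase that links type IV collagen, -0.73, Lama3, -0.67, Agrn, -0.31, and Npnt, -0.28), and Nid2, which ties laminin to type IV collagen, was higher after UNC1999 (0.93, adjusted p = 0.0408). Among 11 small leucine-rich proteoglycans, which bind fibrils, Prelp was lower at a small fold after DZNep (-0.43, adjusted p = 0.0406) and called lower after UNC1999 (-1.05, adjusted p = 0.0486), and Optc was called lower after Romidepsin. Over the 6 lists the smallest adjusted p was 0.299 after UNC0642 and 0.360 in sorted rods.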

How the data were processed

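Poly(A) RNA of 22 rd10 retina and 4 sorted rod libraries was sequenced. The authors trimmed reads with BBDuk, aligned them with HISAT2 2.2.1 to build NCBIM37 (mm9) and used HTSeq 0.11.2 for the counts of Ensembl genes; HISAT2 and HTSeq are also in the submitters' processing notes. The strand setting is not given in the sources used here. The labels name a stranded mRNA kit for all libraries, the paper's methods a SMART-Seq kit for the sorted rods. The deposited values are raw counts of 37991 genes. Symbols were matched for 37205 identifiers, and exon lengths and positions came from GENCODE M1 on NCBIM37. Reads shared by overlapping genes are uncertain.

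Samples were grouped by their titles. Each treatment was compared with its own controls in edgeR 4.0.16 (R 4.3.3): filterByExpr, TMM, quasi-likelihood F test without a replicate block, Benjamini-Hochberg adjustment over all genes tested. The authors' likelihood ratio test was an alternative, as were DESeq2 1.42.0, RLE normalization, no filter, at least 10 counts in every library, a replicate block, no fold threshold, 1 fit over 22 retinas and leaving out each library. Fits were tested on simulated data. In 23 replicate pairs the chi-square per gene was at least 3.89, so none were copies. Nothing states that replicates of a group were not littermates, and p-values measure the spread between these samples. Counts limit precision as sampling error only.

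Named in full are collagens called in any comparison, Col1a1, Col5a3, Col2a1 and the 3 most abundant in control retinas; other collagens are named at an adjusted p under 0.05, or, after their values were seen, near a threshold or as partner chains. The members and lists were chosen with earlier results of these data known. Figures and tables were made with Python 3.11.15, numpy 2.4.6, pandas 2.3.3 and matplotlib 3.10.9.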

Additional observations from a re-analysis of the deposited data

Results flagged for a closer look

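In 2 of the 12 collagens named in full, 1 of the 4 DZNep control libraries lay far from the other 3; chance alone flags about 1 in 20 groups of this kind. Control 1 held 133 CPM of Col18a1, against 59.8 to 71.1 in the others, and 1.41 CPM of Col22a1, against 0.874 to 0.956.

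The effects of 2 treatments on a collagen differed, by the test of the difference in edgeR's quasi-likelihood fit, in 9 cases. The UNC1999 effect exceeded the Romidepsin effect by 2.53 for Col4a3, 2.40 for Col4a4, 1.73 for Col8a2, 1.67 for Col9a3 and 1.54 for Col8a1 on the log2 scale, and was below it for Col5a3 (-1.87). The DZNep effect exceeded the Romidepsin effect by 2.11 for Col4a3 and 1.56 for Col9a3 and was below it for Col24a1 (-1.51). UNC1999 libraries are of another library series than Romidepsin libraries.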

How the results depend on the processing

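The number of collagens called depended on the test more than on the normalization: RLE normalization and a minimum of 10 counts in every library left every count as it was (4, 3, 0, 3 and 0 for DZNep, UNC1999, UNC0642, Romidepsin and rods, and 9 differences between effects). The likelihood ratio test called 6 for UNC1999, 7 for Romidepsin, 2 for the rods and 21 differences, and DESeq2 called 6, 6, 2 and 19. Without a filter on low counts there were 6 for UNC1999, 5 for UNC0642, 5 for Romidepsin and 3 for the rods. In 1 fit over all retinas there were 6 for UNC1999 and 7 for Romidepsin, and without a fold threshold 9 for DZNep. Shares of all genes called under the other tests, filters and fits are not given here. These counts therefore cannot be set against all genes. Leaving out 1 library gave 4 to 7 for DZNep, 0 to 11 for UNC1999, 0 to 5 for UNC0642, 0 to 6 for Romidepsin, 0 to 3 for the rods and 5 to 15 differences. Of 339 alternative values of single named collagens, 285 kept direction and side of the threshold, 28 fell short of it, 19 passed it and 7 changed sign; the cause was not tested. All 7 came from leaving out 1 library and concern values that had not passed the test: over such fits Col1a1 ran from -0.23 to 0.37 and Col2a1 from -0.39 to 0.15 for DZNep, Col1a1 from -0.027 to 0.35 and Col5a3 from -0.11 to 0.29 for UNC1999, and Col5a3 from -0.023 to 0.41 for UNC0642.

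Whether replicate numbers pair the samples was not settled, and where an arm has 2 libraries it cannot be, as the deviations there mirror each other. Correlations of deviations between same-numbered libraries were -0.28, 0.23 and -0.04 for UNC1999, 0.21, -0.05 and -0.28 for Romidepsin, -0.21 and 0.02 for DZNep, 0.21 for UNC0642 and -0.08 for the rods. Differently numbered libraries gave -0.34 to 0.32 for UNC1999 and -0.28 to 0.35 for Romidepsin, so the same-numbered values were no higher there. With a replicate block as an alternative fit, 2 collagens were called for DZNep, 1 for UNC1999, 2 for UNC0642, 2 for Romidepsin and 0 for the rods, and 4 differences between effects.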
